A study of Mus musculus with 12 samples.

Results

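Genes of the voltage-gated potassium, sodium and calcium channels, of the hyperpolarization-activated HCN channels and of their auxiliary subunits were compared between 3 Tet1 genotypes in adult mouse cortex. Members were taken by gene symbol (Kcna, Kcnb, Kcnc, Kcnd, Kcnf, Kcng, Kcnh, Kcnq, Kcns, Kcnv, Kcnab, Kcnip, Hcn, Scn, Cacna1, Cacna2d and Cacnb), which picked 83 rows of the deposited table. Scn8a stood on 2 rows, with equal estimated counts in all 4 HxD libraries but not in KO or WT, and was left out. The remaining 81 genes are set among 21713 symbols with 1 row each. Of these 81 genes, 60 passed the filter on low counts, among 11693 genes tested.

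Poly(A) RNA of whole cortex was sequenced from 4 libraries each of Tet1 KO, Tet1 HxD and Tet1 WT mice. Tet1 encodes a dioxygenase that oxidises 5-methylcytosine, mostly at CpG sites, and HxD is the motif by which enzymes of this family hold iron. The title of the series puts catalytic beside non-catalytic functions of the protein, so KO against WT, HxD against WT and KO against HxD are the comparisons the design holds. The labels give the genotype and the tissue but no allele, strain, sex or age beyond adult, and do not say whether the libraries came from separate animals. P-values therefore measure the spread between these libraries, which may be technical. In bulk tissue, fewer cells of a type and less RNA per cell cannot be told apart.

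Library totals ran from 5791642 to 9535409 estimated counts in KO, 7767787 to 10347432 in HxD and 8310783 to 10915574 in WT. Tet1 itself was listed at 0 in KO 1 to 4, at 1, 0, 63 and 67 estimated counts in HxD 1 to 4 and at 0 in WT 1 to 4, so it does not check the labels. Gapdh, which nearly all cells use, was listed at 0 in all 12 libraries, and a 0 is therefore given only as listed. Markers of cortical neurons were present: Slc17a7 of excitatory neurons had 2155, 1822, 2189.6 and 2266 CPM in KO 1 to 4, 2822, 2474, 2089.9 and 2828 CPM in HxD 1 to 4 and 2801, 3221, 2545 and 2148 CPM in WT 1 to 4. Gad1 of inhibitory neurons lay between 409 and 561 CPM in KO, 429 and 504 CPM in HxD and 378 and 474 CPM in WT. CPM are estimated counts relative to a library's total in tested genes, scaled by edgeR's TMM factor.

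Voltage-gated channels open a pore when the membrane potential moves and so shape the action potential. Sodium channels carry its upstroke, potassium channels repolarise the cell and set firing frequency, calcium channels couple the spike to transmitter release and signalling, and HCN channels open on hyperpolarization and steady the resting potential. Each pore is formed by alpha subunits, whose trafficking and gating are tuned by auxiliary beta, alpha2delta and KChIP subunits.

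Promoter sequence is shown for 5 members that the results turn on, because CpG is a main site of 5-methylcytosine, the substrate of TET1. Cytosines outside CpG were not marked. In Scn7a and Kcnf1 the KO and WT libraries did not overlap, and Hcn2, Kcns1 and Kcna2 varied together between libraries. The sequences are the 250 bases before the gene start in RefSeq's table of build GRCm38.p6, 5′ to 3′ on the gene's strand, with each CG in capitals. The count table gives no coordinates of its own. The windows are Scn7a, chr2:66784911-66785160, minus strand, 3 CpG; Kcnf1, chr12:17176889-17177138, minus strand, 1 CpG; Hcn2, chr10:79716384-79716633, plus strand, 16 CpG; Kcns1, chr2:164171114-164171363, minus strand, 17 CpG; and Kcna2, chr3:107101317-107101566, plus strand, 18 CpG. The start that follows each window lies in a GENCODE vM21 transcript of that gene.
Scn7a: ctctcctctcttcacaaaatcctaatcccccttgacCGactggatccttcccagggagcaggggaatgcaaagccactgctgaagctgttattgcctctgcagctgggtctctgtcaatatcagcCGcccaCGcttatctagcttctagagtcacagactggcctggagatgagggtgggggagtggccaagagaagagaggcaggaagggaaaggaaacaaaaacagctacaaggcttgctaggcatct
Kcnf1: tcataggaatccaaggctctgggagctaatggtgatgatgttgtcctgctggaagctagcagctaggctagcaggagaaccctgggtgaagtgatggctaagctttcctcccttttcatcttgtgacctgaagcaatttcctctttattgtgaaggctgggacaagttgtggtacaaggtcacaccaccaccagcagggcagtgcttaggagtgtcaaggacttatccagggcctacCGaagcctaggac
Hcn2: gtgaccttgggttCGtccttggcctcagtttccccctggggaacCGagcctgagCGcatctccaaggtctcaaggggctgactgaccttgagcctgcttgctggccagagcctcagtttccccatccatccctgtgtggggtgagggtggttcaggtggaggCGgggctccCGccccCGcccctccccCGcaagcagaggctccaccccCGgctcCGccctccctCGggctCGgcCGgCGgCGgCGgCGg
Kcns1: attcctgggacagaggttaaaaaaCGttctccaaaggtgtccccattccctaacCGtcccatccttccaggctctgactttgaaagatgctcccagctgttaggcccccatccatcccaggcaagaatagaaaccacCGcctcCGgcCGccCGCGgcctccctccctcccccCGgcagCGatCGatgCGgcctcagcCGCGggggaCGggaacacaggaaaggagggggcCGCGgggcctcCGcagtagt
Kcna2: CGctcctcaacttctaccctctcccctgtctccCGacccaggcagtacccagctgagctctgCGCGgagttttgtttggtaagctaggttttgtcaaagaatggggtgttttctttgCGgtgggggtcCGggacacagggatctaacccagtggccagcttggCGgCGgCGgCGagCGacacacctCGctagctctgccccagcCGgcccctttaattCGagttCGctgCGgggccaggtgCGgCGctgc

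The windows of Scn7a and Kcnf1 hold 3 and 1 CpG, and those of Hcn2, Kcns1 and Kcna2 hold 16, 17 and 18. Low CpG was not shared by all genes lower in KO. Of the 8 channel genes lower in KO in either KO comparison, by an unadjusted p below 0.05 or by libraries that did not overlap, 6 have windows. Besides Scn7a and Kcnf1 these were Cacnb1, with 1 and 26 CpG in 2 windows, Kcna3 with 31, Kcng3 with 41, and Scn2a with 2 and 9 in 2 windows. RefSeq windows were found for 55 of the 81 genes, 78 windows in all. CG, which reads the same on both strands, occurred in 77 of these 78 windows and in 92.1% of 32851 windows of all genes. At least 10 CG were found in 37 of the 78 windows, or 47.4%, and in 37.8% of all windows, with a median of 8 CG in the channel windows and 6 in all. The match is a description of these letters only, since no methylation was measured in these libraries.

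No channel gene passed an adjusted p of 0.05 in edgeR's quasi-likelihood test in any of the 3 comparisons. Among all 11693 tested genes, that threshold was passed by 18 (0.154%) in KO against WT, 105 (0.898%) in HxD against WT and 119 (1.02%) in KO against HxD. At an unadjusted p below 0.05, KO against WT held 0 of 60 channel genes higher in KO, beside 4.22% of all genes, and 5 lower in KO, or 8.33%, beside 5.26%. The 5 were Scn7a, Kcnf1, Cacnb1, Kcna3 and Scn2a. HxD against WT held 0 channel genes higher in HxD (1.9% of all genes) and 0 lower (2.15%). KO against HxD held 0 higher in KO (5.67% of all genes) and 5 lower (8.33%, against 5.94% of all genes), namely Scn7a, Cacnb1, Hcn3, Kcnf1 and Scn3b. DESeq2's Wald test called 1 channel gene, Scn7a in KO against WT (2.48% of all genes), 0 in HxD against WT (1.48% of all) and 0 in KO against HxD (3.55% of all). Limma-voom called 0 channel genes in KO against WT (0% of all genes), HxD against WT (0.693%) and KO against HxD (0.718%).

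Genes were also counted whose 4 libraries lay wholly above or below those of the other genotype. KO lay below WT in 3 channel genes (5%, beside 3.95% of all tested genes), which were Scn7a, Kcnf1 and Kcng3, and above WT in 0 (3.25% of all genes). HxD lay wholly above WT in 0 channel genes (1.76% of all) and below it in 0 (1.72%). KO lay wholly below HxD in 1 channel gene, Cacnb1 (1.67%, beside 3.62% of all), and above it in 0 (3.97% of all). The median log2 fold change of the 60 genes was -0.06 in KO against WT, -0.02 in HxD against WT and -0.03 in KO against HxD, beside 0.01, 0.01 and 0.00 over all tested genes. The KO against WT median was 0.06 without WT 2 and 0.02 without KO 3. Log2 fold changes above and below 0 numbered 27 and 33 in KO against WT, 28 and 32 in HxD against WT and 29 and 31 in KO against HxD.

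Each log2 fold change below is given ± its standard error. Adjusted p values of the edgeR fit on all 12 libraries are by the Benjamini-Hochberg method over the 11693 genes. A missed threshold does not show equal levels, and the intervals say how much could be seen. The 95% interval of the log2 fold change lay within 2-fold either way for 28 of 60 channel genes in KO against WT, 32 in HxD against WT and 24 in KO against HxD. It lay within 0.5 log2 units either way for 7, 12 and 10 genes in the same order. The median standard error was 0.33 log2 units in KO against WT and in each of the other two comparisons, against 0.26 over all tested genes.

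**Figure D1:**
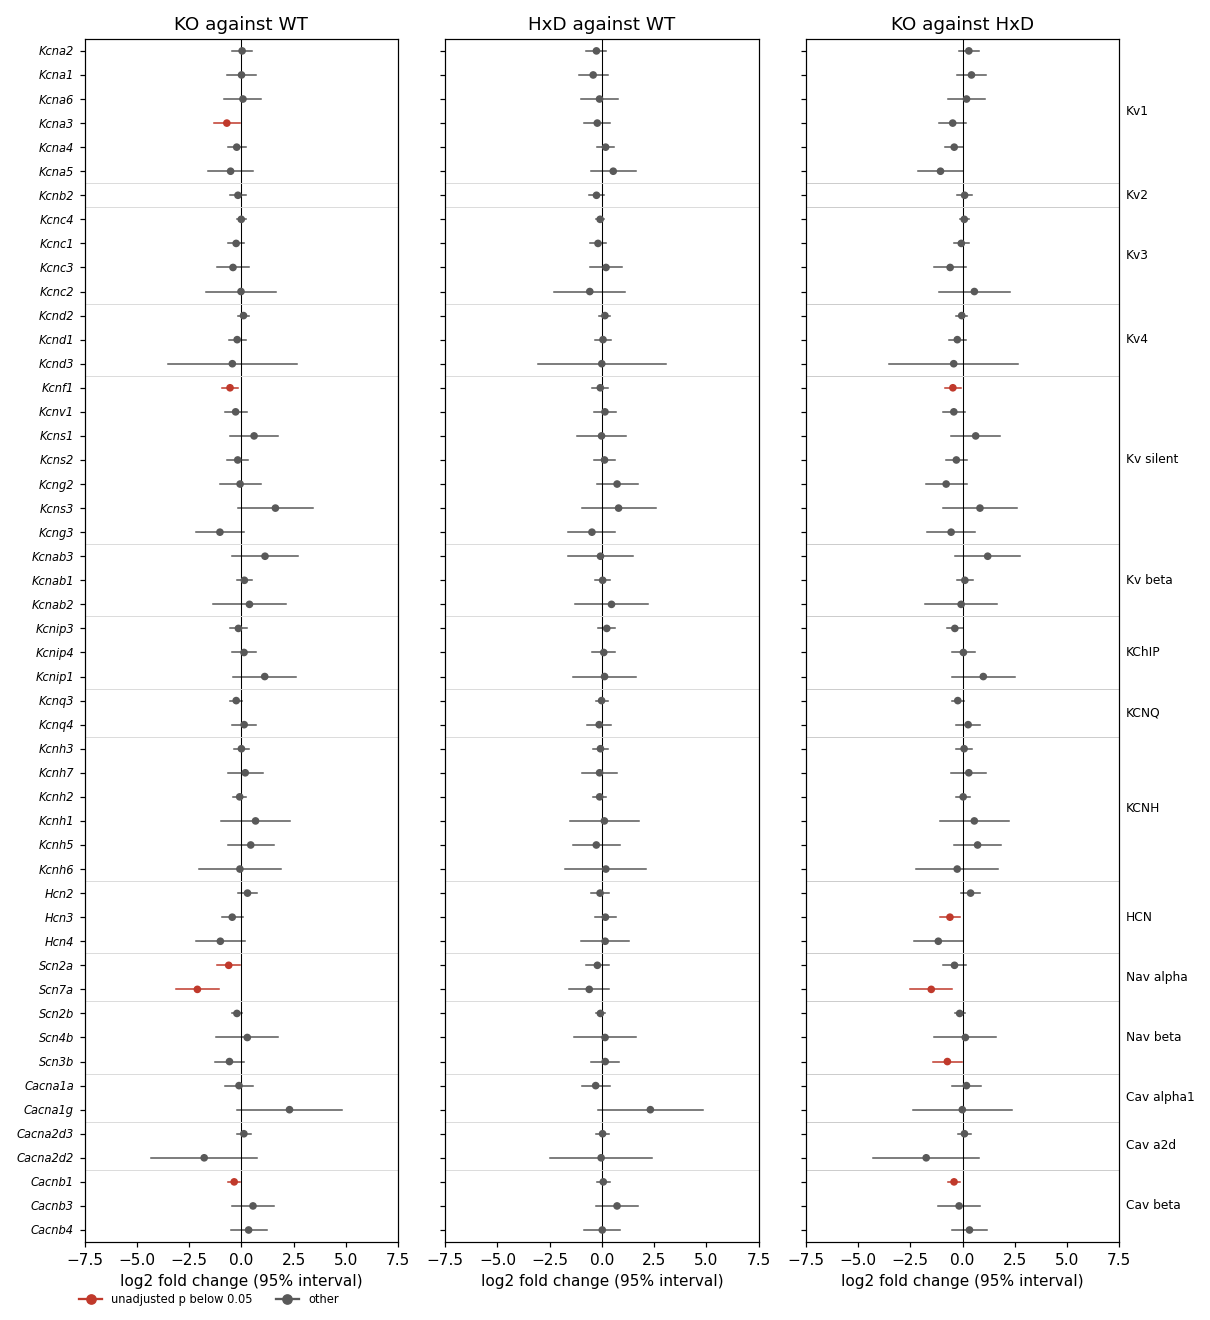
Log2 fold changes (x axis, points) with 95% intervals (bars) of channel genes that passed the filter, without those listed at 0 in 1 library and at 100 or more counts in another of the same genotype, by family and, within a family, by level. Red marks the 5 genes of KO against WT and the 5 of KO against HxD with an unadjusted p below 0.05; HxD against WT has 0, and no gene passed the adjusted threshold of 0.05.

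The summed level of all 81 genes, per kb of each gene's longest GENCODE transcript, was 1916 ± 313 CPM per kb in KO, 1759 ± 376 in HxD and 1774 ± 238 in WT (SD, n = 4 libraries here and in all families). Such a sum is weighted by its few most abundant genes and does not describe a typical member. Over all 12 libraries Hcn2 averaged 114 CPM per kb, Scn2b 101, Kcnh3 83.2, Cacnb1 61.2, Cacnb3 60.1 and Kcnf1 53.0 CPM per kb. Hcn2 and Scn2b lay within each other's spread in HxD and WT, while in KO Hcn2 was above Scn2b by more than both SDs together: Hcn2 had 132 ± 17.7 CPM per kb in KO, 101 ± 25.1 in HxD and 108 ± 24.7 in WT, and Scn2b had 93.0 ± 9.86 CPM per kb in KO, 102 ± 9.96 in HxD and 108 ± 12.4 in WT. Scn2a was the highest alpha subunit of the sodium channels at 43.5 CPM per kb, Kcna2 the highest pore-forming potassium channel subunit outside the KCNH and silent families at 50.2, and Cacna1a the highest calcium channel pore at 32.4. Ranks and family sums take the estimates as listed, including genes such as Cacna1c, listed at 0 in 11 of 12 libraries. They are therefore no safer than those zeros.

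**Figure D2:**
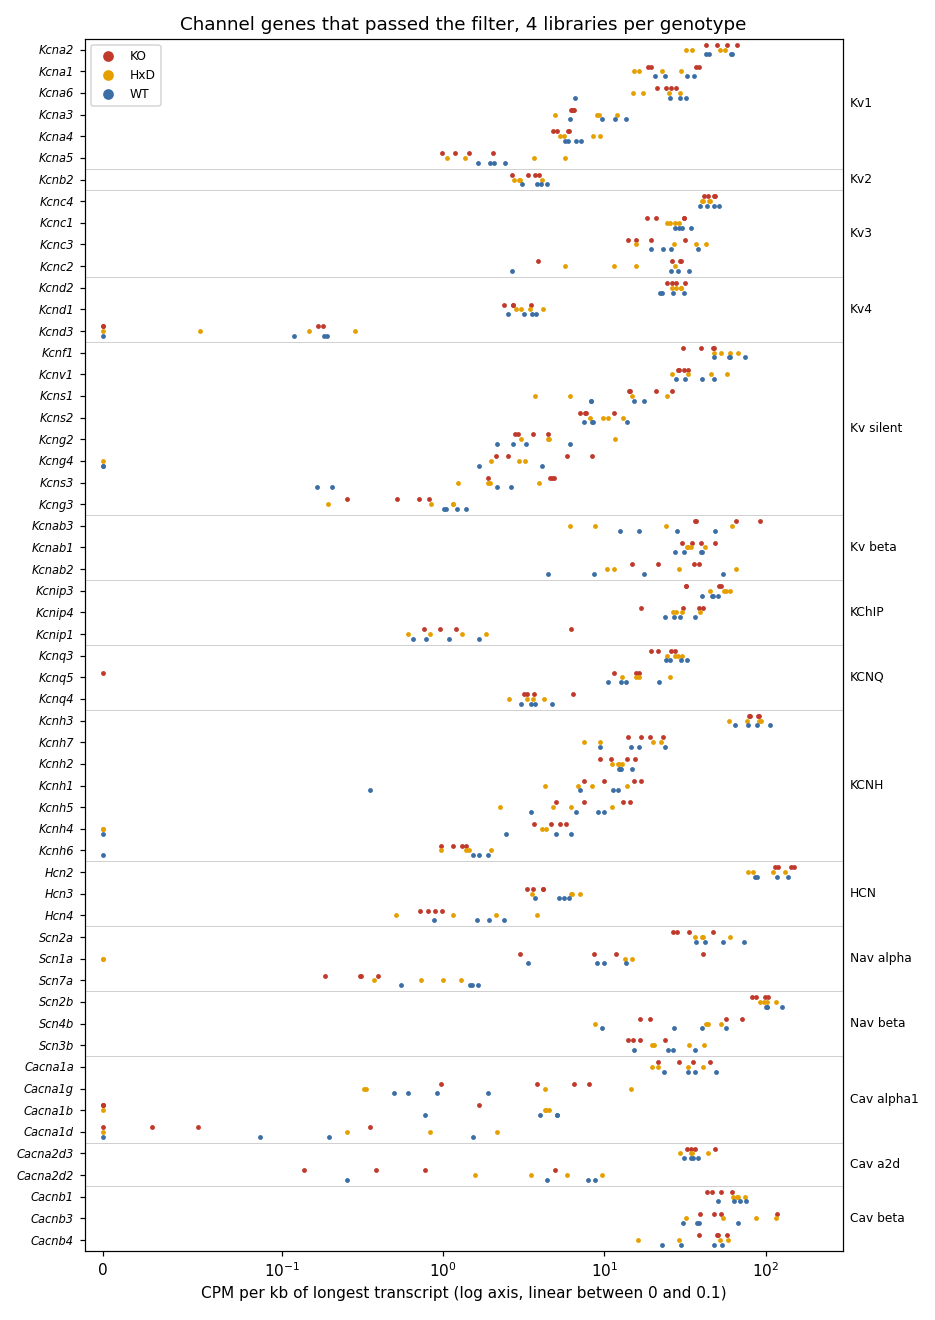
Level of tested channel genes in each library, in CPM per kb of longest transcript (log axis, linear below 0.1), with KO above HxD above WT in every row. Most rows overlap between genotypes, and Hcn2 averages 114 CPM per kb.

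The Kv1 family forms low-threshold and inactivating potassium channels of axons and terminals. Its summed level was 121 ± 22.5 CPM per kb in KO, 106 ± 18.3 in HxD and 123 ± 23.6 in WT, and 6 of its 8 genes passed the filter. Log2 fold changes above and below 0 numbered 3 and 3 in KO against WT, 2 and 4 in HxD against WT and 3 and 3 in KO against HxD. Kcna2, an axonal delayed rectifier subunit, had 667, 495, 578 and 767 CPM in KO 1 to 4, 405, 653, 370.2 and 605 CPM in HxD 1 to 4 and 516, 719.9, 496 and 710.4 CPM in WT 1 to 4. HxD 3 and HxD 1 were lowest and KO 4 highest, and all 3 genotypes overlapped. For Kcna2 the log2 fold change was 0.04 ± 0.22 in KO against WT, -0.26 ± 0.22 in HxD against WT and 0.30 ± 0.22 in KO against HxD, with edgeR adjusted p values of 0.982, 0.999 and 0.64. Kcna1, its partner in axons, had 148, 78.6, 75.3 and 157 CPM in KO 1 to 4, 66.2, 92.0, 61.8 and 121 CPM in HxD 1 to 4 and 83.6, 132, 95.5 and 145 CPM in WT 1 to 4. KO 2 and KO 3 lay below every WT library and KO 1 and KO 4 above every WT library. For Kcna1 the log2 fold change was 0.01 ± 0.31 in KO against WT, -0.42 ± 0.31 in HxD against WT and 0.43 ± 0.31 in KO against HxD, with edgeR adjusted p values of 0.996, 0.999 and 0.643.

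Kcna3, a delayed rectifier also known from lymphocytes and microglia, had 12.2, 12.4, 11.8 and 12.0 CPM in KO 1 to 4, 17.1, 9.36, 17.6 and 22.9 CPM in HxD 1 to 4 and 26.0, 22.3, 18.4 and 11.6 CPM in WT 1 to 4. The KO libraries kept within 11.8 to 12.4 CPM, and 3 of 4 WT libraries lay above them while WT 4 lay just below. For Kcna3 the log2 fold change was -0.70 ± 0.29 in KO against WT, -0.22 ± 0.28 in HxD against WT and -0.47 ± 0.29 in KO against HxD, with edgeR adjusted p values of 0.476, 0.999 and 0.56. Its unadjusted p in KO against WT was 0.0342. Kcna4, which gives a fast-inactivating A-type current, had 23.0, 28.9, 28.6 and 24.4 CPM in KO 1 to 4, 44.9, 25.3, 41.0 and 27.0 CPM in HxD 1 to 4 and 32.1, 27.2, 34.5 and 28.6 CPM in WT 1 to 4. HxD 1 and HxD 3 were the highest libraries and KO 1 the lowest. For Kcna4 the log2 fold change was -0.22 ± 0.19 in KO against WT, 0.18 ± 0.19 in HxD against WT and -0.40 ± 0.19 in KO against HxD, with edgeR adjusted p values of 0.794, 0.999 and 0.459. Kcna5, another delayed rectifier, had 5.82, 2.81, 4.17 and 3.42 CPM in KO 1 to 4, 10.6, 3.90, 16.3 and 3.02 CPM in HxD 1 to 4 and 5.93, 5.62, 6.93 and 4.71 CPM in WT 1 to 4. HxD 3 and HxD 1 lay above the other 10 libraries, while HxD 2 and HxD 4 lay among KO and below WT. For Kcna5 the log2 fold change was -0.52 ± 0.49 in KO against WT, 0.54 ± 0.49 in HxD against WT and -1.06 ± 0.50 in KO against HxD, with edgeR adjusted p values of 0.828, 0.999 and 0.449.

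Kv2 channels are the delayed rectifiers of neuronal cell bodies and dendrites. Kcnb2 of this family had 39.9, 58.8, 55.0 and 49.7 CPM in KO 1 to 4, 44.1, 40.9, 44.3 and 60.6 CPM in HxD 1 to 4 and 59.9, 65.3, 45.7 and 56.9 CPM in WT 1 to 4. In HxD, library 4 stood above the other three, which lay below all WT libraries. For Kcnb2 the log2 fold change was -0.16 ± 0.16 in KO against WT, -0.26 ± 0.16 in HxD against WT and 0.10 ± 0.16 in KO against HxD, with edgeR adjusted p values of 0.839, 0.999 and 0.887.

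The Kv3 family (Kcnc1 to Kcnc4), whose channels let fast-spiking interneurons fire at high rates, had 114 ± 21.1 CPM per kb in KO, 115 ± 17.0 in HxD and 125 ± 20.9 in WT. All 4 log2 fold changes lay below 0 in KO against WT, between -0.40 and -0.0043, and the lowest edgeR adjusted p was 0.699. The Kv4 family of A-type channels had 30.5 ± 3.16 CPM per kb in KO, 31.9 ± 1.35 in HxD and 29.1 ± 4.34 in WT, most of it from Kcnd2, which averaged 27.2 CPM per kb over all libraries. Kcnd3 was near the limit of the counts, with estimated counts of 0, 9, 12 and 0 in KO 1 to 4, 19, 3, 9 and 0 in HxD 1 to 4 and 12, 0, 7 and 13 in WT 1 to 4.

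Silent subunits of the genes Kcnf1, Kcng, Kcns and Kcnv form no channel alone and join Kv2 subunits, whose gating they alter. Their summed level was 112 ± 5.34 CPM per kb in KO, 132 ± 25.9 in HxD and 127 ± 18.7 in WT, and 8 of 10 passed the filter. Kcnf1, the most abundant of them, had 191, 227, 229.8 and 147 CPM in KO 1 to 4, 229.5, 255, 289.6 and 322 CPM in HxD 1 to 4 and 355, 288, 284 and 230.5 CPM in WT 1 to 4. All 4 KO libraries lay below all 4 WT libraries, with KO 3 and WT 4 almost touching, and KO overlapped HxD only through KO 3 and HxD 1. For Kcnf1 the log2 fold change was -0.54 ± 0.17 in KO against WT, -0.08 ± 0.17 in HxD against WT and -0.46 ± 0.17 in KO against HxD, with edgeR adjusted p values of 0.33, 0.999 and 0.346. Its 95% interval in KO against WT was -0.92 to -0.16, at an unadjusted p of 0.00952.

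Kcng2 had 10.1, 12.6, 7.81 and 8.20 CPM in KO 1 to 4, 32.6, 8.58, 12.8 and 12.7 CPM in HxD 1 to 4 and 7.64, 17.3, 6.08 and 9.22 CPM in WT 1 to 4. HxD 1 stood above the other 11 libraries. For Kcng2 the log2 fold change was -0.06 ± 0.44 in KO against WT, 0.73 ± 0.44 in HxD against WT and -0.78 ± 0.44 in KO against HxD, with edgeR adjusted p values of 0.986, 0.999 and 0.527. Kcns3 had 14.4, 5.61, 13.5 and 13.8 CPM in KO 1 to 4, 11.5, 5.59, 3.63 and 5.76 CPM in HxD 1 to 4 and 7.76, 6.38, 0.486 and 0.602 CPM in WT 1 to 4. KO 1, KO 3 and KO 4 were higher than all 8 HxD and WT libraries, KO 2 was not, and WT 3 and WT 4 rested on 4 and 6 estimated counts. For Kcns3 the log2 fold change was 1.63 ± 0.82 in KO against WT, 0.80 ± 0.80 in HxD against WT and 0.83 ± 0.80 in KO against HxD, with edgeR adjusted p values of 0.584, 0.999 and 0.754. Kcng3, named after its values were seen because its KO and WT libraries did not overlap, had 2.74, 1.74, 0.856 and 2.39 CPM in KO 1 to 4, 3.88, 0.650, 3.86 and 2.83 CPM in HxD 1 to 4 and 4.11, 4.67, 3.40 and 3.51 CPM in WT 1 to 4. Its estimated counts were 16, 13, 8 and 14 in KO 1 to 4, 36, 5, 33 and 29 in HxD 1 to 4 and 36, 49, 28 and 35 in WT 1 to 4. For Kcng3 the log2 fold change was -1.03 ± 0.52 in KO against WT, -0.48 ± 0.51 in HxD against WT and -0.55 ± 0.52 in KO against HxD, with edgeR adjusted p values of 0.588, 0.999 and 0.749.

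The KCNQ family carries the M-current that damps repetitive firing, and it had 39.5 ± 6.11 CPM per kb in KO, 49.9 ± 6.60 in HxD and 47.8 ± 8.70 in WT. Kcnq3, a main subunit of the M-current, had 307, 231, 256 and 326 CPM in KO 1 to 4, 357, 290.2, 323 and 341 CPM in HxD 1 to 4 and 354, 385, 286 and 302 CPM in WT 1 to 4. KO 2 and KO 3 were the lowest libraries, and KO 1 and KO 4 lay within WT. For Kcnq3 the log2 fold change was -0.25 ± 0.13 in KO against WT, -0.02 ± 0.13 in HxD against WT and -0.23 ± 0.13 in KO against HxD, with edgeR adjusted p values of 0.616, 0.999 and 0.532. The KCNH family (the eag, erg and elk channels) had 144 ± 21.6 CPM per kb in KO, 126 ± 30.6 in HxD and 134 ± 34.2 in WT, with log2 fold changes above and below 0 numbering 5 and 2 in KO against WT, 2 and 5 in HxD against WT and 6 and 1 in KO against HxD. Kcnh3, an elk channel of forebrain neurons, had 336, 291, 294 and 331 CPM in KO 1 to 4, 219.9, 338, 282 and 348 CPM in HxD 1 to 4 and 289, 393, 240.0 and 328 CPM in WT 1 to 4. KO libraries fell inside the WT range, and HxD 1 was the lowest. For Kcnh3 the log2 fold change was 0.00 ± 0.17 in KO against WT, -0.07 ± 0.17 in HxD against WT and 0.07 ± 0.17 in KO against HxD, with edgeR adjusted p values of 0.999, 0.999 and 0.925.

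Auxiliary potassium channel subunits comprise the cytoplasmic Kv beta subunits, which bind Kv1, and the calcium-binding KChIP proteins, which bind Kv4. Kv beta genes had 124 ± 12.7 CPM per kb in KO, 90.0 ± 47.2 in HxD and 82.5 ± 25.6 in WT, and KChIP genes had 76.2 ± 23.0 CPM per kb in KO, 86.6 ± 11.7 in HxD and 76.6 ± 8.20 in WT. Kcnab1, whose protein speeds inactivation of Kv1 channels, had 133, 214, 174 and 153 CPM in KO 1 to 4, 185, 145, 151 and 143 CPM in HxD 1 to 4 and 121, 137, 177 and 174 CPM in WT 1 to 4. The 3 genotypes overlapped, with KO 2 highest and WT 1 lowest. For Kcnab1 the log2 fold change was 0.14 ± 0.17 in KO against WT, 0.03 ± 0.17 in HxD against WT and 0.11 ± 0.17 in KO against HxD, with edgeR adjusted p values of 0.879, 0.999 and 0.87. Kcnip3, a KChIP also known as the transcriptional repressor DREAM, had 87.2, 141, 144 and 87.6 CPM in KO 1 to 4, 155, 165, 123 and 151 CPM in HxD 1 to 4 and 127, 139, 129.8 and 111 CPM in WT 1 to 4. KO 1 and KO 4 lay below the other 10 libraries and KO 2 and KO 3 among them. For Kcnip3 the log2 fold change was -0.14 ± 0.18 in KO against WT, 0.23 ± 0.18 in HxD against WT and -0.37 ± 0.18 in KO against HxD, with edgeR adjusted p values of 0.895, 0.999 and 0.464. Kcnip2, Kcnab2 and Kcnip1 are described by range only: Kcnip2 was listed at 0 in 11 of 12 libraries, Kcnab2 spanned 17.6 to 258 CPM, and Kcnip1 2.48 to 25.4 CPM.

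HCN channels carry the hyperpolarization-activated current of cortical dendrites, and all 4 genes passed the filter. Hcn2 had 458, 383, 365 and 481 CPM in KO 1 to 4, 267, 421, 249 and 354 CPM in HxD 1 to 4 and 276, 375, 284 and 442 CPM in WT 1 to 4. KO 4, KO 1 and WT 4 were the highest and HxD 3 and HxD 1 the lowest. For Hcn2 the log2 fold change was 0.29 ± 0.20 in KO against WT, -0.09 ± 0.20 in HxD against WT and 0.39 ± 0.20 in KO against HxD, with edgeR adjusted p values of 0.706, 0.999 and 0.498.

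Hcn3 had 14.4, 16.7, 16.7 and 13.3 CPM in KO 1 to 4, 24.8, 14.3, 28.5 and 25.4 CPM in HxD 1 to 4 and 22.6, 21.0, 24.3 and 14.8 CPM in WT 1 to 4. HxD 2 and WT 4 lay among the KO libraries, and the other HxD and WT libraries lay above them. For Hcn3 the log2 fold change was -0.44 ± 0.22 in KO against WT, 0.17 ± 0.22 in HxD against WT and -0.60 ± 0.22 in KO against HxD, with edgeR adjusted p values of 0.594, 0.999 and 0.345. Hcn4, the pacemaker channel of the sinoatrial node and of thalamus, had 5.99, 4.41, 4.92 and 5.47 CPM in KO 1 to 4, 13.0, 3.12, 23.3 and 7.02 CPM in HxD 1 to 4 and 11.7, 9.90, 14.7 and 5.41 CPM in WT 1 to 4. HxD 3 was highest and HxD 2 lowest, so HxD spanned all KO and WT values. For Hcn4 the log2 fold change was -1.01 ± 0.52 in KO against WT, 0.15 ± 0.52 in HxD against WT and -1.16 ± 0.53 in KO against HxD, with edgeR adjusted p values of 0.608, 0.999 and 0.43.

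Alpha subunits of the sodium channels form the pore of the action potential upstroke. Of the 9 counted here 3 passed the filter, and their summed level was 50.5 ± 14.2 CPM per kb in KO, 54.8 ± 4.93 in HxD and 63.9 ± 15.1 in WT. Scn2a, the main sodium channel of excitatory axons beside Scn8a, had 239.6, 302, 422 and 254 CPM in KO 1 to 4, 368, 539, 359 and 324 CPM in HxD 1 to 4 and 376, 656, 488 and 332 CPM in WT 1 to 4. KO 3 lay above WT 1 and WT 4, and WT 2 was the highest library. For Scn2a the log2 fold change was -0.61 ± 0.26 in KO against WT, -0.22 ± 0.25 in HxD against WT and -0.39 ± 0.25 in KO against HxD, with edgeR adjusted p values of 0.486, 0.999 and 0.605. Its unadjusted p was 0.0377 in KO against WT.

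Scn7a, which encodes the atypical sodium-sensing channel Nax, had the smallest p of the channel genes in KO against WT and in KO against HxD. It had 2.23, 2.27, 2.89 and 1.37 CPM in KO 1 to 4, 7.32, 2.73, 9.48 and 5.37 CPM in HxD 1 to 4 and 11.1, 12.1, 10.8 and 4.01 CPM in WT 1 to 4. All 4 KO libraries lay below all 4 WT libraries, KO overlapped HxD only through KO 3 and HxD 2, and WT 4 stood apart from the other WT libraries. Its estimated counts were 13, 17, 27 and 8 in KO 1 to 4, 68, 21, 81 and 55 in HxD 1 to 4 and 97, 127, 89 and 40 in WT 1 to 4. For Scn7a the log2 fold change was -2.10 ± 0.46 in KO against WT, -0.61 ± 0.44 in HxD against WT and -1.50 ± 0.45 in KO against HxD, with edgeR adjusted p values of 0.144, 0.999 and 0.248. In KO against WT the 95% interval was -3.12 to -1.09 and the unadjusted p 0.000831. DESeq2's Wald test, adjusted over 11635 genes, gave an adjusted p of 0.00173. Limma-voom gave 0.476, and without WT 4 the edgeR adjusted p was 0.0582. At 0.814 CPM per kb over all libraries it was among the lowest of the tested channel genes.

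Auxiliary beta subunits of the sodium channels tune the gating and placement of the pore. Scn2b, which binds alpha subunits through a disulfide bond, had 459, 384, 405 and 483 CPM in KO 1 to 4, 457, 477, 431 and 539.7 CPM in HxD 1 to 4 and 469.9, 588, 474 and 474 CPM in WT 1 to 4. WT 2 was the highest library and KO 2 the lowest, and the other libraries of the 3 genotypes overlapped. For Scn2b the log2 fold change was -0.21 ± 0.11 in KO against WT, -0.07 ± 0.11 in HxD against WT and -0.14 ± 0.11 in KO against HxD, with edgeR adjusted p values of 0.587, 0.999 and 0.667. Scn3b had 58.2, 98.1, 69.3 and 62.7 CPM in KO 1 to 4, 171, 84.9, 139 and 82.3 CPM in HxD 1 to 4 and 103, 110.2, 151 and 63.9 CPM in WT 1 to 4. WT 4 lay among the KO libraries, and HxD 1 was highest. For Scn3b the log2 fold change was -0.57 ± 0.31 in KO against WT, 0.16 ± 0.31 in HxD against WT and -0.73 ± 0.31 in KO against HxD, with edgeR adjusted p values of 0.62, 0.999 and 0.403. Scn4b, known from striatal and fast-spiking neurons, spanned 43.4 to 355 CPM over the 12 libraries, with overlap in each comparison.

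Alpha1 subunits form the pore of calcium channels, and 4 of 9 passed the filter. Their summed level was 38.8 ± 5.63 CPM per kb in KO, 40.5 ± 12.1 in HxD and 40.8 ± 10.2 in WT. Cacna1a, the P/Q-type pore of transmitter release, had 283, 231, 171 and 358 CPM in KO 1 to 4, 172, 325, 157 and 262 CPM in HxD 1 to 4 and 185, 390.5, 261 and 291 CPM in WT 1 to 4. The 3 genotypes overlapped, with WT 2 highest and HxD 3 lowest. For Cacna1a the log2 fold change was -0.11 ± 0.30 in KO against WT, -0.30 ± 0.30 in HxD against WT and 0.19 ± 0.30 in KO against HxD, with edgeR adjusted p values of 0.956, 0.999 and 0.882. Cacna1g, a T-type pore of thalamic and other neurons, had 32.2, 54.8, 66.9 and 8.20 CPM in KO 1 to 4, 2.80, 2.73, 36.1 and 122 CPM in HxD 1 to 4 and 7.64, 4.19, 5.10 and 15.8 CPM in WT 1 to 4. HxD 4, KO 3, KO 2, HxD 3 and KO 1 were all above WT, while HxD 1 and HxD 2 were below every WT library and KO 4 among them. For Cacna1g the log2 fold change was 2.31 ± 1.14 in KO against WT, 2.32 ± 1.13 in HxD against WT and -0.01 ± 1.08 in KO against HxD, with edgeR adjusted p values of 0.573, 0.999 and 0.999. It had the smallest p of the channel genes in HxD against WT, 0.0669 unadjusted. Without HxD 4 the log2 fold change of Cacna1g in HxD against WT was 0.76 ± 0.98, with an edgeR adjusted p of 0.9999, and limma-voom gave 1.04 with all libraries.

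Cytoplasmic beta subunits bring calcium channel pores to the membrane, and 3 of 4 passed the filter, with a summed level of 165 ± 44.8 CPM per kb in KO, 179 ± 51.3 in HxD and 147 ± 33.9 in WT. Cacnb1 had 209, 148, 159 and 179 CPM in KO 1 to 4, 227, 228, 213 and 252 CPM in HxD 1 to 4 and 234, 258, 216 and 173 CPM in WT 1 to 4. All 4 KO libraries lay below all 4 HxD libraries, KO 1 and HxD 3 being close, and WT 4 lay among KO. For Cacnb1 the log2 fold change was -0.34 ± 0.14 in KO against WT, 0.06 ± 0.14 in HxD against WT and -0.41 ± 0.14 in KO against HxD, with edgeR adjusted p values of 0.455, 0.999 and 0.291. Cacnb3 had 145, 132, 107 and 320.0 CPM in KO 1 to 4, 237, 316, 87.6 and 148 CPM in HxD 1 to 4 and 106, 185, 84.1 and 102 CPM in WT 1 to 4. KO 4, HxD 2 and HxD 1 stood above the rest. For Cacnb3 the log2 fold change was 0.56 ± 0.45 in KO against WT, 0.72 ± 0.45 in HxD against WT and -0.17 ± 0.45 in KO against HxD, with edgeR adjusted p values of 0.778, 0.999 and 0.94. Cacnb4, the beta subunit mutated in the lethargic mouse, had 411, 416, 318 and 473 CPM in KO 1 to 4, 237, 429.7, 133 and 485 CPM in HxD 1 to 4 and 189, 442, 247 and 393 CPM in WT 1 to 4. HxD 4 and KO 4 were highest and HxD 3 and WT 1 lowest. For Cacnb4 the log2 fold change was 0.35 ± 0.39 in KO against WT, 0.02 ± 0.39 in HxD against WT and 0.33 ± 0.39 in KO against HxD, with edgeR adjusted p values of 0.868, 0.999 and 0.812. The alpha2delta subunits, which raise channel number at the surface, had 39.6 ± 6.81 CPM per kb in KO, 40.9 ± 4.86 in HxD and 40.4 ± 3.70 in WT, and Cacna2d3 averaged 36.2 CPM per kb.

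Several channel genes were high or low in the same libraries of a genotype. Kcnab3, a Kv beta subunit, is used here to order the libraries; it was chosen after its values were seen, as the tested channel gene with 1 RefSeq transcript whose CPM had the widest range, 15.3-fold. It had 166, 92.6, 94.4 and 236 CPM in KO 1 to 4, 22.3, 157, 15.5 and 61.1 CPM in HxD 1 to 4 and 31.9, 71.7, 41.8 and 123 CPM in WT 1 to 4. KO 4 and KO 1 were the highest in KO, HxD 2 in HxD and WT 4 in WT, while HxD 3 and HxD 1 were the lowest of the 12. For Kcnab3 the log2 fold change was 1.13 ± 0.71 in KO against WT, -0.07 ± 0.70 in HxD against WT and 1.20 ± 0.71 in KO against HxD, with edgeR adjusted p values of 0.674, 0.999 and 0.545.

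Over the 12 libraries, log2 CPM of Kcnab3 was correlated with that of the other 59 tested channel genes, as a description of libraries that share depth and tissue. Each p is from a two-sided permutation test with 100000 resamples, and the smallest p they can give is 1e-05. All 12 libraries were shuffled without regard to genotype. Differences between genotypes and variation within a genotype therefore both enter each p, which cannot tell them apart. Hcn2 (r = 0.977, rho = 0.972, both p 1e-05) and Kcns1 (r = 0.941, rho = 0.916, permutation p 1e-05 and 4e-05) followed it closely. Kcna2 (r = 0.875, rho = 0.783, permutation p 0.00024 and 0.0038) and Cacnb4 (r = 0.851, rho = 0.636, permutation p 0.00037 and 0.029) also lay above 0.8. Hcn3 (r = -0.932, rho = -0.944, both permutation p 1e-05) and Kcna4 (r = -0.909, rho = -0.860, permutation p 4e-05 and 0.00058) ran opposite. So did Hcn4 (r = -0.876, rho = -0.776, permutation p 0.00023 and 0.0044), Scn3b (r = -0.850, rho = -0.860, permutation p 0.00063 and 0.00071) and Scn7a (r = -0.813, rho = -0.790, permutation p 0.0017 and 0.0034). Over the 59 relations, 19 had a Benjamini-Hochberg adjusted permutation p below 0.05 for Pearson's r, 11 of them positive and 8 negative. The adjusted values of the 9 genes named above were 0.00015 to 0.0098 for Pearson's r and 0.0002 to 0.08 for Spearman's rho. The set differed for Spearman's rho: Cacnb4 had 0.08, while Kcnh6 had 0.023 beside 0.37 for r. The 19 include Cacna1b and Cacna1d, which alternate between 0 and high counts. No such share was taken over all tested genes, so whether it is particular to channel genes was not tested.

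Without HxD 3 and HxD 1, the 2 libraries farthest from the median of Kcnab3, r was 0.966 for Hcn2, 0.955 for Kcns1, 0.711 for Kcna2 and 0.722 for Cacnb4. It was -0.915 for Hcn3, -0.840 for Kcna4, -0.771 for Hcn4, -0.764 for Scn3b and -0.868 for Scn7a. Within a genotype, 4 libraries are too few for a correlation, but the order can be read: Hcn2 and Kcns1 were each highest in KO 4 among KO, in HxD 2 among HxD and in WT 4 among WT. Scn7a and Hcn3 were each lowest in KO 4 among KO, in HxD 2 among HxD and in WT 4 among WT. Hcn4 was highest in KO 1 and KO 4 among KO, as Kcnab3 was, so it did not run opposite within KO, and it was lowest in HxD 2 among HxD and in WT 4 among WT. Kcns1 had 56.5, 39.0, 38.4 and 71.4 CPM in KO 1 to 4, 10.01, 66.0, 16.6 and 40.1 CPM in HxD 1 to 4 and 22.6, 41.3, 22.5 and 48.0 CPM in WT 1 to 4.

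A marker of fast-spiking interneurons was high and low in the same libraries, and in HxD and WT the oligodendrocyte markers partly were too. Pvalb, the interneuron marker, had 199.9, 136, 131 and 189.8 CPM in KO 1 to 4, 36.3, 169.9, 18.6 and 90.2 CPM in HxD 1 to 4 and 52.2, 96.5, 72.6 and 174 CPM in WT 1 to 4. The 8 inhibitory neuron markers summed to 1445 to 1563 CPM in KO, 1378 to 1766 in HxD and 1226 to 1534 in WT. Their sum did not follow Pvalb, since it was highest in HxD 3, the lowest library for Pvalb. The 7 oligodendrocyte markers summed to 3279 to 3863 CPM in KO, 1423 to 4234 in HxD and 2002 to 4797 in WT. In HxD their sum was lowest in HxD 3 and HxD 1 and highest in HxD 2, and in WT it was highest in WT 4, as for Kcnab3. In KO it was highest in KO 2 and lowest in KO 1, unlike Kcnab3. HxD 3 and HxD 1 were lowest for Pvalb, as for Kcnab3. The 9 markers of striatal projection neurons, from tissue next to cortex, summed to 269 to 408 CPM in KO, 235 to 1082 in HxD, where HxD 3 was highest, and 359 to 636 in WT. The 5 markers of hippocampus and thalamus summed to 10.3 to 16.2 CPM in KO, 10.01 to 75.5 in HxD and 17.5 to 60.0 in WT, and were highest in HxD 1, HxD 3 and WT 3, at 75.5, 71.8 and 60.0 CPM. Hcn4 was highest in the same 3 libraries. Of these markers, Prkcd was at 0 CPM in HxD 1 and HxD 3 and at 14.1 in WT 3. It was at 11.4 CPM in WT 1 and 10.8 in WT 4. Tcf7l2 was at 0 CPM in HxD 1, 1.76 in HxD 3 and 0.122 in WT 3. The high sums in HxD 1 and HxD 3 therefore came from other genes of the list. Ttr of choroid plexus reached 247 CPM in HxD 1. Csf1r of microglia and Pecam1 of endothelium were listed at 0 in all libraries. KO 4 and KO 1 were also the shallowest libraries, at 5791642 and 5853428 estimated counts. The part of these cells, or of depth, in the levels of the channel genes was not tested.

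**Figure D3:**
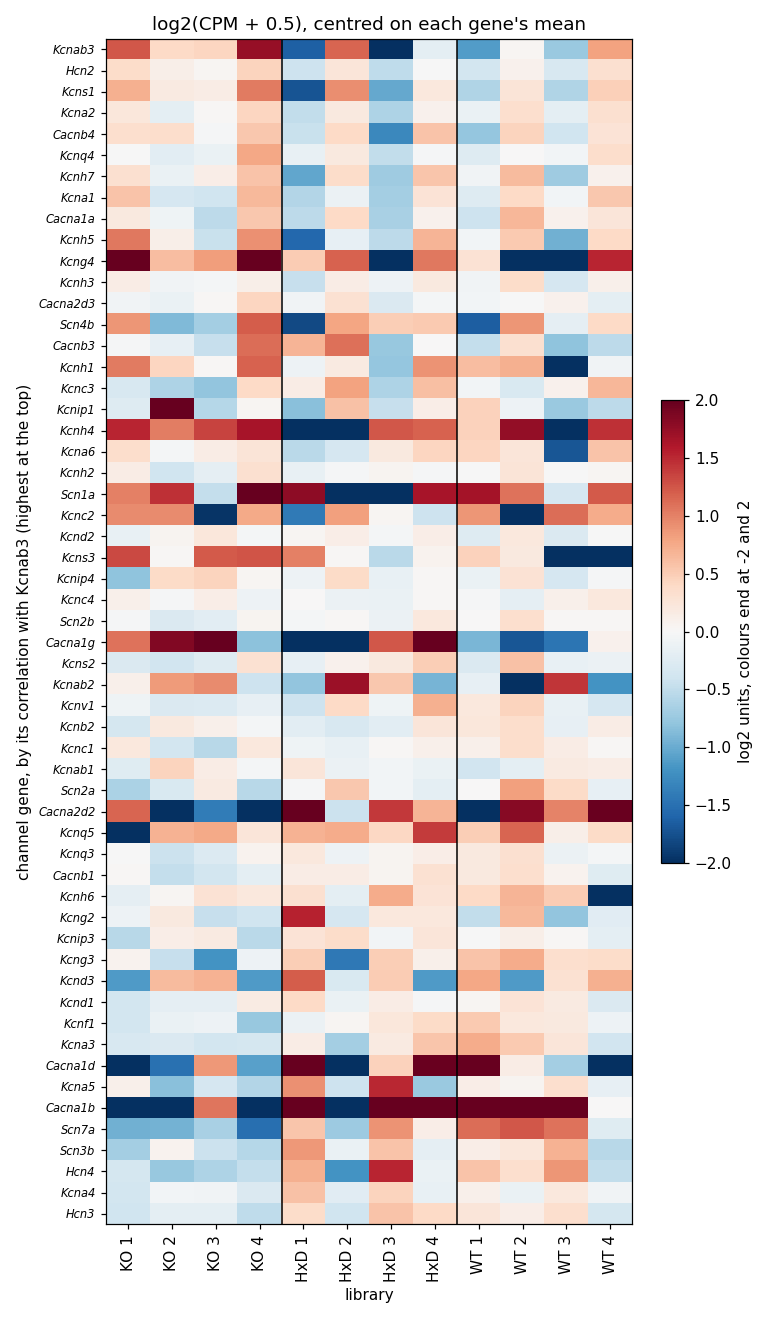
Log2(CPM + 0.5) of tested channel genes, each centred on its mean over the 12 libraries (colour, from -2 to 2), with libraries in columns and genes in rows ordered by their correlation with Kcnab3. Genes at the top are high in KO 1, KO 4, HxD 2 and WT 4 and low in HxD 1 and HxD 3, and genes at the bottom run the other way.

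Some channel genes alternated between 0 and high estimated counts in libraries of 1 genotype, and are given as values with no fold. A listed 0 beside at least 100 counts in another library of the same genotype was found in 8 of 59 channel genes that reach 100 counts (13.6%) and in 929 of 9250 of all genes (10%). All values that follow are estimated counts. Cacna1b, the N-type pore of transmitter release, was at 0, 0, 152 and 0 in KO 1 to 4, 409, 0, 359 and 437 in HxD 1 to 4 and 435, 521, 321 and 75 in WT 1 to 4. KO held 3 libraries at 0 and HxD 1 library, and WT held none. Cacna1d, an L-type pore, was at 0, 2, 32 and 3 in KO 1 to 4, 194, 0, 21 and 82 in HxD 1 to 4 and 130, 20, 7 and 0 in WT 1 to 4. Cacna1h, a T-type pore, was at 0, 0, 129 and 0 in KO 1 to 4, 0, 0, 414 and 347 in HxD 1 to 4 and 0, 0, 0 and 0 in WT 1 to 4, so all WT libraries were at 0. Scn1a, the sodium channel of inhibitory neurons, was at 421, 740, 237 and 2010 in KO 1 to 4, 1149, 0, 0 and 1153 in HxD 1 to 4 and 998, 799, 231 and 835 in WT 1 to 4, with both zeros in HxD.

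Scn3a, a sodium channel best known before birth, was at 0, 0, 7 and 0 in KO 1 to 4, 8, 4, 772 and 0 in HxD 1 to 4 and 559, 0, 0 and 0 in WT 1 to 4, and only HxD 3 and WT 1 were above 10. Kcng4, a silent subunit, was at 130, 61, 90 and 186 in KO 1 to 4, 70, 95, 0 and 115 in HxD 1 to 4 and 56, 0, 0 and 157 in WT 1 to 4. Kcnh4, an elk channel, was at 122, 109, 172 and 133 in KO 1 to 4, 0, 0, 146 and 167 in HxD 1 to 4 and 85, 258, 0 and 199 in WT 1 to 4, with HxD and WT each holding both zeros and high values and KO none. Kcnq5, an M-current subunit, was at 0, 820, 1068 and 467 in KO 1 to 4, 1020, 877, 768 and 1838 in HxD 1 to 4 and 837, 1590, 603 and 884 in WT 1 to 4, and KO 1 alone was at 0. Each of these 8 genes has at least 2 RefSeq transcripts, and how the authors' estimates divided reads among transcripts was not tested.

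**Figure D4:**
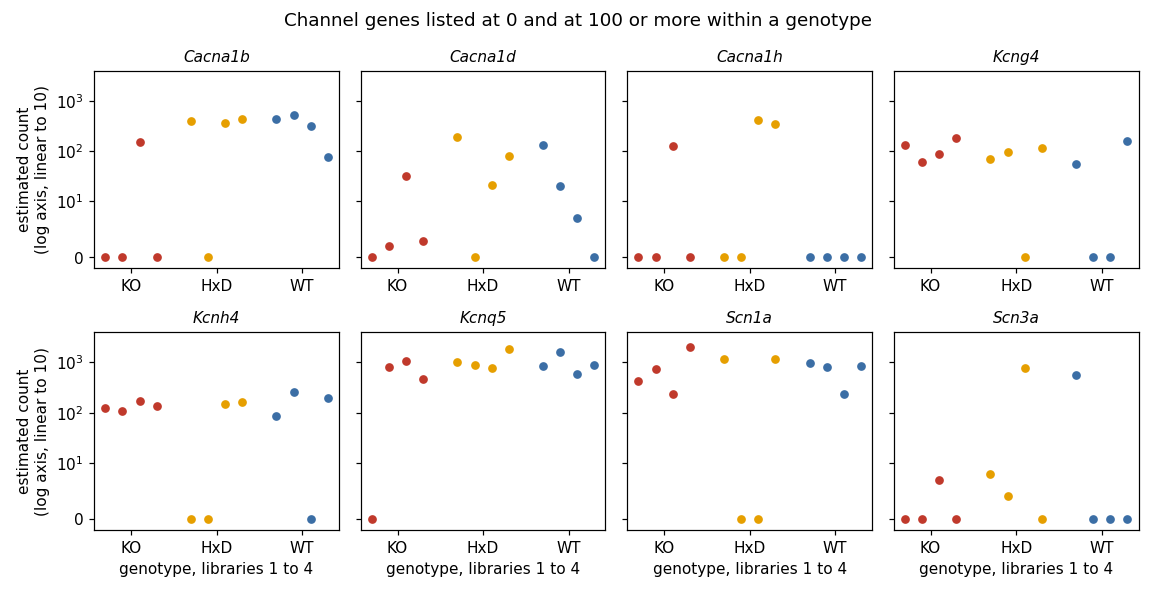
Estimated counts (log axis, linear to 10) of the 8 channel genes listed at 0 in 1 library and at 100 or more in another of the same genotype, with libraries 1 to 4 from left to right in each genotype. Zeros occur in KO for Cacna1b, Cacna1d, Cacna1h, Kcnq5 and Scn3a, in HxD for all but Kcnq5, and in WT for Cacna1d, Cacna1h, Kcng4, Kcnh4 and Scn3a.

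The 21 channel genes that did not pass the filter were mostly near 0. Cacna1f, Scn4a, Scn10a and Scn11a, known from retina, skeletal muscle and sensory neurons, were listed at 0 in all 12 libraries. Another 8 stayed under 10 estimated counts in every library, among them Cacna1e and Cacna2d1, and the other 9 reached 10 somewhere. Cacna1c, the main L-type pore of neurons and heart, was listed at 0 in 11 libraries and at 27 in HxD 1. Of all 81 genes, 54 were above 0 in all 12 libraries.

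Among 62 listed partners outside the symbol rule (inward rectifier, tandem-pore and calcium-activated potassium channels, axonal anchors, the Cacng family, NALCN and TRP channels), 60 were measured and 49 passed the filter. EdgeR called 0 of them in any comparison, as did limma-voom, while DESeq2 called 2 in KO against WT (Ank2 and Trpm7), 2 in HxD against WT (Trpm3 and Trpm7) and 3 in KO against HxD (Ank2, Cacng7 and Trpm3). These are 4.08%, 4.08% and 6.12% of the partners, beside 2.48%, 1.48% and 3.55% of all genes. Trpm3 and Trpm7 alternated between 0 and at least 100 estimated counts within a genotype, so their calls rest on such zeros. Trpm7 was at 0, 0, 281 and 285 in HxD 1 to 4 and at 0 in all WT libraries. Trpm3 was at 359, 161, 0 and 35 in KO 1 to 4 and at 0 in all HxD libraries. Both calls in HxD against WT are of these genes, which also enter the counts that follow. At an unadjusted p below 0.05 the partners numbered 2 higher and 4 lower in KO against WT, 1 and 1 in HxD against WT and 5 and 2 in KO against HxD. As shares, higher and lower, these were 4.08% and 8.16% in KO against WT (4.22% and 5.26% of all genes), 2.04% and 2.04% in HxD against WT (1.9% and 2.15% of all) and 10.2% and 4.08% in KO against HxD (5.67% and 5.94% of all). Cacng7, of the family of AMPA receptor auxiliary proteins and named after its values were seen, had the smallest edgeR adjusted p, 0.0666 in KO against HxD, with 422 ± 13.8 CPM in KO and 318 ± 26.4 CPM in HxD (SD, n = 4 libraries each) and a log2 fold change of 0.41 ± 0.09.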

How the data were processed

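Poly(A) RNA-seq libraries of whole cortex were labelled by genotype, with 4 libraries each of KO, HxD and WT. The deposited table holds estimated counts per gene symbol from the authors, with no normalization, and all its values were whole numbers, so rounding changed none. Tools named in the submitters' processing notes are StringTie 2.2.3, SAMtools 1.9, STAR 2.7.1a, FastQC and Trim Galore 0.6.7, and mm10 and GRCm39 stand there as builds, with no role for any. Nothing read here states the counting step, strand setting or annotation, so genes that overlap or share sequence with a copy are uncertain. Estimates shared among transcripts can move between 0 and high counts. The table held 0 columns of other samples. The 25 symbols on several rows (56 of 21769 rows), which include Scn8a, were left out.

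Genes passing edgeR's filterByExpr (minimum count 10) were tested with TMM factors and the robust quasi-likelihood F test in edgeR 4.0.16 (R 4.3.3), on all 12 libraries with genotype as the only term and 9 residual degrees of freedom. P-values were adjusted by Benjamini-Hochberg over 11693 genes, with a threshold of 0.05. Levels per kb use the longest GENCODE vM21 transcript, and correlations use log2(CPM + 0.5). The scripts were tested on simulated counts. Library totals of 5791642 to 10915574 estimated counts set the counting precision, and no unique molecular identifiers are reported.

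Alternatives were other scaling factors, limma-voom (limma 3.58.1), DESeq2 1.42.0, other filters, only the 8 libraries compared, a transcript length trend, a replicate block, an adjusted p threshold of 0.1 and leaving out each library. Fold changes and tests are printed for the 8 smallest p values per comparison and the 2 genes of highest mean CPM in each of 8 broad groups (Kv alpha subunits together, Kv auxiliary, KCNQ with KCNH, HCN, sodium alpha, sodium beta, calcium alpha1 and calcium auxiliary). Genes alternating between 0 and at least 100 counts within a genotype are given by values alone. This rule took 36 genes, 28 with a fold change, of which 3 are not reported here, and some genes are neither named nor drawn. Any other gene named with its values was chosen after they were seen. The members, lists and tests were chosen with earlier results of these data known.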

Additional observations from a re-analysis of the deposited data

Results flagged for a closer look

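In 121 groups of 4 libraries (a channel gene in a genotype, over the genes given with values), 15 held a highest or lowest library whose gap to its nearest neighbour took more of the group's range than Dixon's 95% critical value allows for 4 values. Of these, 8 came from the 23 groups of genes that were chosen because they alternate between 0 and at least 100 counts, so their number says nothing beyond that choice. The other 7 came from 98 groups (7.14%). The nominal rate of 1 in 20 does not apply to tied zeros. In HxD, Cacna1c and Kcnip2 each had 1 library above 0 beside tied zeros, where the gap always takes the whole range. Some genes were also named after their values were seen, so no excess over chance can be read from this share. No explanation of these values was tested. All values below are in CPM.

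Cacna1b, Cacna1d, Cacna1h and Scn3a are among the genes chosen for alternating. Cacna1b was at 16.25 in KO 3 with 0 in the other KO libraries, and at 0 in HxD 2 with 42.03 to 44.04 in the other HxD libraries. Cacna1d was at 3.422 in KO 3 with at most 0.5125 in the other KO libraries, and at 14.83 in WT 1 with at most 1.904 in the other WT libraries. Cacna1h was at 13.8 in KO 3 with 0 in the other KO libraries. Scn3a was at 0.7486 in KO 3 with 0 in the other KO libraries. In HxD 3 it was at 90.39, with at most 0.8613 in the other HxD libraries, and in WT 1 at 63.77 with 0 in the other WT libraries.

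Among the other genes, Kcns3 was at 5.611 in KO 2 and at 13.47 to 14.39 in the other KO libraries. Kcnip1 was at 25.38 in KO 2 and at 3.101 to 4.954 in the other KO libraries. Kcnb2 was at 60.58 in HxD 4 and at 40.94 to 44.26 in the other HxD libraries. Cacna1c was at 2.907 in HxD 1, and Kcnip2 at 0.1951 in HxD 4, each with 0 in the other HxD libraries. Scn2b was at 587.9 in WT 2 and at 469.9 to 473.9 in the other WT libraries. Scn7a was at 4.01 in WT 4 and at 10.82 to 12.09 in the other WT libraries.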

How the results depend on the processing

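With 22 other settings, the number of channel genes past an adjusted p of 0.05 stayed at 0 in all comparisons, except that DESeq2's Wald test called 1 in KO against WT (Scn7a). At a threshold of 0.1 the number in the main edgeR fit was also 0. The looser threshold was not met by 0 genes in every setting. Some settings brought Scn7a and Cacnb1 in KO against HxD, and Scn7a and Kcnf1 in KO against WT, below 0.1. Scn7a in KO against WT ranged from -2.37 to -1.92 on the log2 scale over the settings, with adjusted p from 0.00173 to 0.476. The cause of the difference between tools was not tested. Without each library in turn, 0 genes were called, and the median log2 fold change of the channel genes ranged from -0.13 to 0.06 in KO against WT, -0.08 to 0.06 in HxD against WT and -0.06 to 0.04 in KO against HxD. Every median stayed within 0.166 of its value, the SD of the library medians in WT, which was 0.112 in KO and 0.0965 in HxD. The KO against WT median turned positive without WT 2 (0.06) and without KO 3 (0.02), and the shift without WT 2 was larger than the KO and HxD SDs. Of 84 fold changes of genes taken by the rule, 1848 recomputed values held 83 with another sign, none of them called, in 24 fold changes no larger than 0.19. Replicate numbers did not pair the libraries: deviations of libraries with the same number correlated at -0.0708 to 0.0779. With the replicate number as a block, 0 channel genes were called, and the medians were -0.06 in KO against WT, -0.05 in HxD against WT and 0.01 in KO against HxD. Tested channel genes were longer than all tested genes, with median transcripts of 4.72 and 3.39 kb. The slope of log2 counts on log2 length differed between libraries, at -0.0962 to -0.0067 in KO, -0.111 to 0.0772 in HxD and -0.0022 to 0.0918 in WT. All KO slopes thus lay below all WT slopes, with KO 4 and WT 4 close, and HxD overlapped both. With the length trend removed, the HxD against WT median was 0.03. Scn7a in KO against WT was then -1.99 ± 0.44. Changes smaller than the printed intervals could not be seen with the spread and depth of these libraries.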
